A study of Homo sapiens with 18 samples.

Results

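The transcriptional response to an androgen was followed in LNCaP cells in which the transcription factor subunit NFYA had been knocked down by siRNA. LNCaP is an established line of androgen-responsive prostate cancer cells, a single line here in every group. The comparison takes 6 libraries of the 18 samples of the series, chosen by their labels alone: 3 of siNFYA cells given the synthetic androgen R1881 at 10 nM for 24 h, and 3 of siNFYA cells given the vehicle, 96% ethanol, for the same time. All cells were first kept for 48 h in medium with 5% charcoal-stripped serum, which is low in steroids, so vehicle cells are steroid-deprived and not cells in full serum. The same response was measured under control siRNA, with 3 R1881 and 3 vehicle libraries, and under siKLF5, with 3 R1881 and 2 vehicle libraries in the tables used here. RNA was extracted from whole cultures and made into stranded libraries. The labels do not say whether libraries of a group came from separate cultures, so p-values measure the spread between these libraries, which may be technical.

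R1881 binds the androgen receptor, a nuclear hormone receptor that, once it holds its ligand, moves to the nucleus and binds androgen response elements near genes such as KLK3, which encodes prostate-specific antigen. In prostate luminal cells the receptor is known to drive secretory, lipid and glycosylation genes, and to repress others. NFYA is the subunit of NF-Y that reads DNA sequence: together with the histone-fold pair NFYB and NFYC it binds the CCAAT box, an element of many promoters of cell cycle, sterol and chaperone genes.

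Library totals ran from 4416653 to 6047263 estimated counts in the siNFYA groups. There 3 counts correspond to between 0.496 and 0.679 CPM (counts per 1000000) in 1 library, before scaling. Levels are given as CPM scaled by TMM, a normalization that assumes that most genes do not change. NFYA itself, the check of the knockdown, had 58.9, 57 and 53.7 CPM in the siNFYA R1881 libraries, against 48.2, 44.2 and 46.9 CPM in the siNFYA vehicle libraries. It had 84.6, 89.8 and 86.8 CPM in the control R1881 libraries, against 68.6, 71.4 and 73.6 CPM in the control vehicle libraries. NFYA was thus lower in every siNFYA library than in any control library of the same treatment, but more than 40 CPM were left, so the knockdown was partial at the RNA level (siNFYA against control, log2 -0.62 ± 0.063 in vehicle and -0.62 ± 0.062 in R1881). The siNFYA vehicle replicate 3 library stood apart: 2.85% of its counts fell on AC010970.1, a gene made of ribosomal RNA sequence, against 0.0902% to 0.412% in the other siNFYA libraries. Mitochondrially encoded genes took 2.54% to 2.62% of counts in siNFYA R1881 libraries, against 2.60% to 3.00% in siNFYA vehicle libraries (exact two-sided permutation test, p = 0.2, where 3 against 3 can give no p below 0.1). The 20 luminal epithelial markers summed to between 18350 and 18820 CPM in siNFYA R1881 libraries, against 4526 to 4695 CPM in siNFYA vehicle libraries, and KRT5, KRT17 and TP63 (basal), INSM1 (neuroendocrine) and CD3E, CD14, HBA1, HBB, CDH5 and KDR (blood and endothelial) were at 0 counts in all 6 siNFYA libraries.

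In NFYA-knockdown cells most of the genes tested were called as changed by R1881, the larger part of them by less than 2-fold. Of 12601 genes tested, 7828 (62.1%) passed in edgeR's quasi-likelihood test at a Benjamini-Hochberg adjusted p under 0.05, 3926 (31.2%) of them higher with R1881 and 3902 (31%) lower. A change of at least 2-fold was called in 930 genes (7.38%) with a rise and 1229 (9.75%) with a fall. Under control siRNA, 7932 genes (62.9%) passed, 4051 (32.1%) higher and 3881 (30.8%) lower, with at least 2-fold rises in 941 (7.47%) and falls in 1173 (9.31%). The size of the response was alike in both: the median absolute log2 fold change over all genes tested was 0.365 under siNFYA and 0.361 under control siRNA, and the major axis through both sets of log2 fold changes had a slope of 1.02. How calls split into rises and falls depends on the scaling. TMM assumes that most genes do not change, yet 62.1% of the genes tested were called. With library totals in place of TMM, the median log2 fold change of all genes moved to -0.24 under siNFYA, against -0.018 with TMM, and 28.15% of the calls were rises, against 50.15% with TMM. Directions of small changes below are therefore relative to the TMM centre. Without siNFYA vehicle replicate 3, the library with ribosomal RNA sequence, 7531 genes passed, 3947 higher and 3584 lower.

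**Figure D1:**
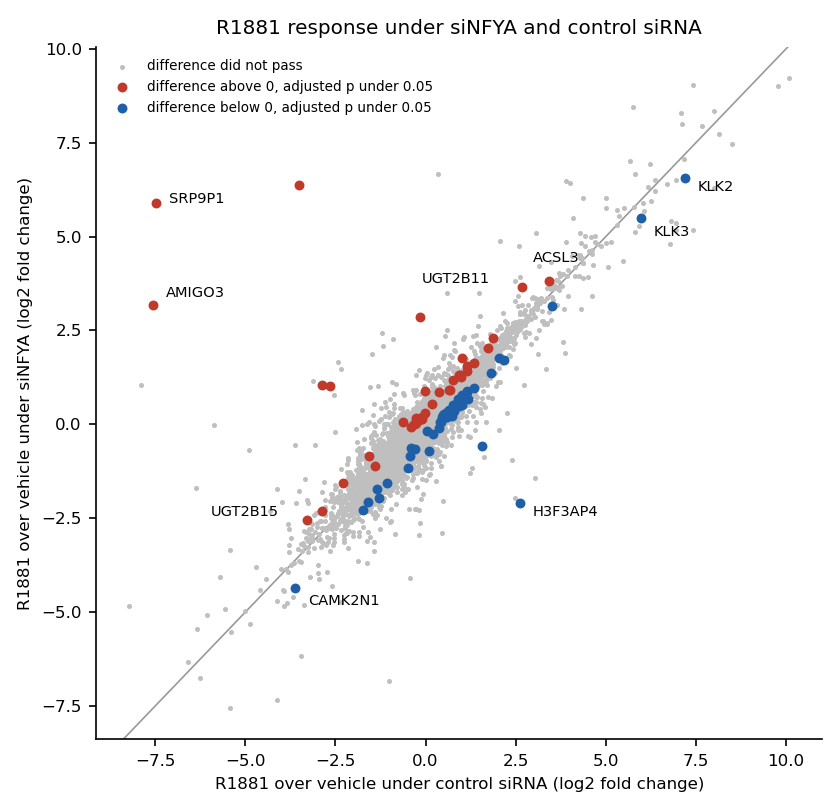
Log2 fold change of R1881 over vehicle for each of 12601 genes, under siNFYA (vertical) and under control siRNA (horizontal), with the line of equal response in grey. Red points are the 42 genes and blue points the 49 genes whose difference between the responses passed at an adjusted p under 0.05; SRP9P1, AMIGO3 and H3F3AP4, far from the line, have libraries at or near 0 counts, so their positions rest on few reads.

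Among genes with a mean of at least 1 CPM in both groups, KLK2 had the largest called rise under siNFYA. KLK2, a secreted protease gene at chr19:50861568-50880567 of GRCh38 (GENCODE v29, here and below), had 1080, 1028 and 1059 CPM with R1881, against 11.5, 10.2 and 12.2 CPM with vehicle. KLK3, its neighbour at chr19:50854915-50860764, had 4193, 4271 and 4140 CPM with R1881, against 83.5, 89.8 and 106 CPM with vehicle. In neither gene did an R1881 library come near a vehicle library. Log2 fold changes were 6.55 ± 0.063, adjusted p = 1.8e-29 for KLK2 and 5.50 ± 0.062, adjusted p = 1.75e-28 for KLK3. FKBP5, a co-chaperone of steroid receptors, had 2744, 2874 and 2812 CPM with R1881, against 74.1, 67.8 and 69.2 CPM with vehicle (log2 5.32 ± 0.05). TMPRSS2, a membrane serine protease whose promoter drives ETS fusions in many prostate tumours, had 2134, 2130 and 2091 CPM with R1881, against 75.2, 72.6 and 79.9 CPM with vehicle (log2 4.80 ± 0.048). All 3 R1881 libraries lay above all 3 vehicle libraries for each of these genes, as they did or lay below for 8128 of the 12601 genes (64.5%).

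Further among the 10 largest rises stood genes of glycan synthesis, of androgen breakdown and of secretion. ST6GALNAC1, a sialyltransferase of O-linked glycans, had 80.6, 79.4 and 78.7 CPM with R1881, against 1.44, 1.03 and 0.642 CPM with vehicle (log2 6.20 ± 0.15). CSGALNACT1, which starts chondroitin sulfate chains, had 69.8, 76 and 74.2 CPM with R1881, against 1.98, 1.55 and 0.428 CPM with vehicle (log2 5.72 ± 0.16). UGT2B28, a glucuronosyltransferase that conjugates steroids, had 64.8, 77.3 and 70.1 CPM with R1881, against 1.26, 1.55 and 1.71 CPM with vehicle (log2 5.54 ± 0.16). Every vehicle library of these genes held fewer than 2 CPM, so the size of their folds rests on few reads. MYBPC1, a myosin-binding protein otherwise known from slow skeletal muscle, had 78.7, 85.4 and 82.3 CPM with R1881, against 2.52, 0.861 and 0.642 CPM with vehicle, and NDRG1, a stress- and hypoxia-responsive gene, had 1859, 1913 and 1839 CPM with R1881, against 30.8, 38 and 34 CPM with vehicle. Their log2 fold changes were 5.88 ± 0.16 and 5.77 ± 0.053. AZGP1, a secreted zinc-binding glycoprotein of seminal fluid, had 99.6, 116 and 108 CPM with R1881, against 2.52, 4.47 and 2.78 CPM with vehicle (log2 5.02 ± 0.13). EAF2, a partner of ELL elongation factors, had 58.5, 58.1 and 55.9 CPM with R1881, against 1.8, 1.89 and 1.71 CPM with vehicle (log2 4.97 ± 0.15). The adjusted p of these 7 genes lay between 1.29e-29 and 6.93e-20.

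**Figure D2:**
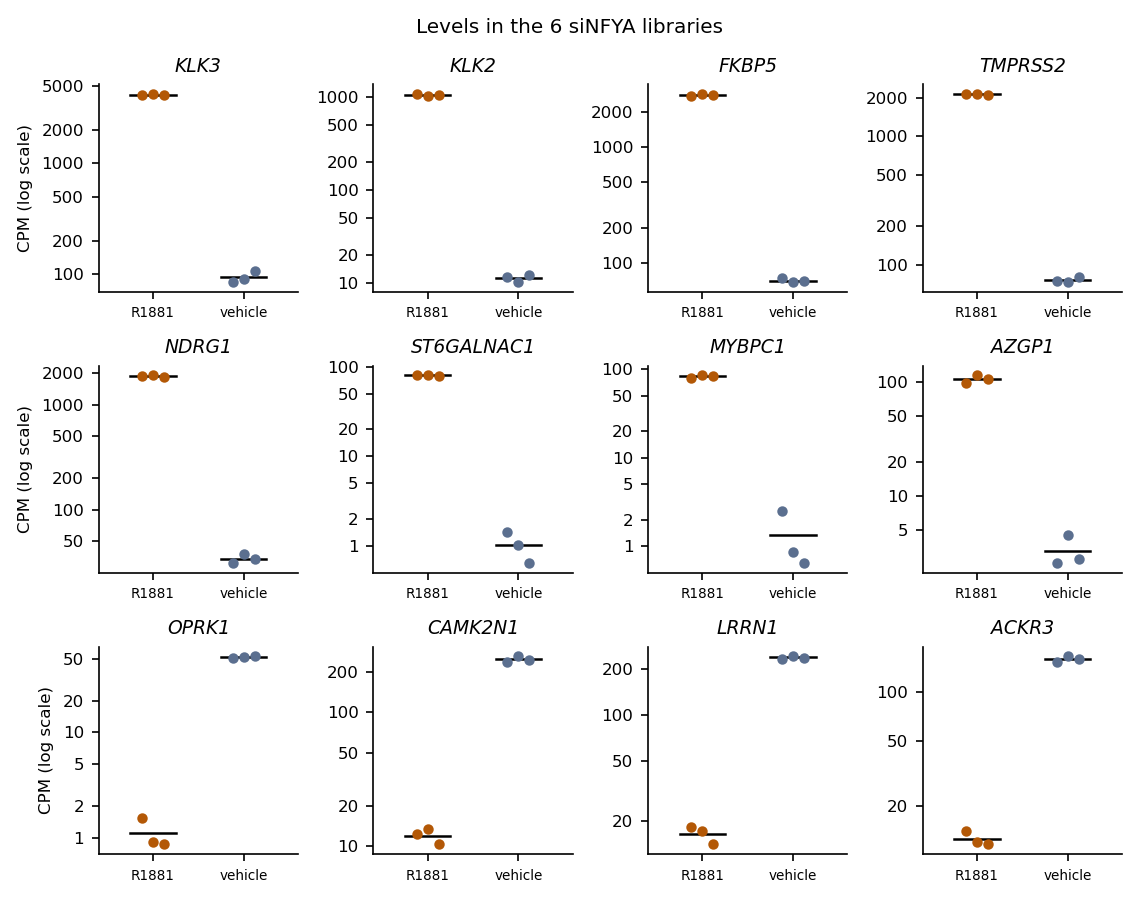
Level in CPM (logarithmic axis) of 12 named genes in the 3 R1881 (left) and 3 vehicle (right) libraries of siNFYA cells; points are libraries and bars their means. R1881 libraries lie above all vehicle libraries for the 8 genes of the upper rows and below them for OPRK1, CAMK2N1, LRRN1 and ACKR3.

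Genes with large falls included signalling receptors, adhesion molecules and lipid transporters. OPRK1, the kappa opioid receptor, had 1.54, 0.903 and 0.86 CPM with R1881, against 51.1, 51.5 and 53.1 CPM with vehicle (log2 -5.52 ± 0.16). CAMK2N1, an inhibitor of calcium/calmodulin-dependent kinase II, had 12.3, 13.4 and 10.3 CPM with R1881, against 238, 264 and 245 CPM with vehicle (log2 -4.36 ± 0.078). ACKR3, a scavenging receptor for the chemokine CXCL12, had 14, 12.1 and 11.6 CPM with R1881, against 151, 165 and 157 CPM with vehicle (log2 -3.65 ± 0.083). In all 3 genes each vehicle library exceeded each R1881 library more than 10-fold. LRRN1, a leucine-rich repeat membrane protein, had 18.3, 17.1 and 14 CPM with R1881, against 236, 245 and 239.6 CPM with vehicle, and SLITRK3, a synaptic adhesion protein, had 8.65, 8.3 and 7.95 CPM with R1881, against 103, 111 and 109 CPM with vehicle. Their log2 fold changes were -3.86 ± 0.067 and -3.69 ± 0.10. ABCA12, a lipid transporter (log2 -3.75 ± 0.13), MID1, a ubiquitin ligase on microtubules (log2 -4.12 ± 0.21), CDH26, a cadherin (log2 -3.26 ± 0.19), and SYTL2, a RAB27 effector in secretion (log2 -4.07 ± 0.31), fell too. SYTL2 was uneven among the R1881 libraries, with 1.92, 0 and 2.36 CPM, against 25.5, 20 and 24.4 CPM with vehicle.

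Near silence, only called protein-coding genes with a gene symbol were counted. Of these, 32 that rose had at most 3 counts over the 3 vehicle libraries. Another 29, which fell, had at most 3 counts over the 3 R1881 libraries. CHRNA2, a nicotinic acetylcholine receptor subunit, had 1008 counts over the R1881 libraries and 3 over the vehicle libraries. Relative to library totals this is a ratio of 300-fold (95% counting interval 102 to 1460). CCDC141 had 481 counts with R1881 and 2 with vehicle, and PGC, the stomach protease progastricsin, which prostate cells also make, 395 with R1881 and 2 with vehicle. TBX15, a T-box transcription factor, had 289 with R1881 and 3 with vehicle. In the other direction, ABCA1, the cholesterol efflux pump, had 3 counts over the R1881 libraries and 99 over the vehicle libraries, 37-fold (95% counting interval 12.3 to 182), higher with vehicle. TGM3, a transglutaminase, had 2 with R1881 and 74 with vehicle, and CCDC83 3 with R1881 and 74 with vehicle. PCDH11X, a protocadherin with a near-identical copy that can share its reads, had 1 count with R1881 and 152 with vehicle. The ratios for CHRNA2 and ABCA1 were taken on library totals pooled by group, without TMM scaling, and their intervals cover counting error only. With TMM scaling, the CHRNA2 means were 65.55 CPM with R1881 and 0.177 CPM with vehicle. Those of ABCA1 were 0.196 CPM with R1881 and 6.22 CPM with vehicle.

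Genes listed as androgen targets rose almost throughout. The lists were chosen with earlier results of these data known, so this count is not independent of them. Of 84 androgen target genes tested, 82 rose and none fell under siNFYA, beside 31.2% of all genes called higher and 31% lower. HSD17B14 and PTK2B did not pass. The median log2 fold change of the 84 was 2.58 under siNFYA and 2.70 under control siRNA, against -0.018 and -0.010 for all genes tested. ACSL3, which activates long-chain fatty acids, had 2369, 2524 and 2430 CPM with R1881, against 168, 174 and 179.9 CPM with vehicle (log2 3.81 ± 0.041), and SLC38A2, an amino acid transporter, 816, 858 and 866 CPM with R1881, against 285, 270.2 and 261 CPM with vehicle (log2 1.64 ± 0.038). Of 11 genes listed as androgen-repressed, 7 fell and 3 rose, with a median of -2.54 under siNFYA and -3.15 under control siRNA. BCHE, butyrylcholinesterase, had 34, 33.8 and 32.9 CPM with R1881, against 267, 279 and 279 CPM with vehicle (log2 -3.03 ± 0.053). The glucuronosyltransferases UGT2B15 and UGT2B17, which inactivate dihydrotestosterone, fell, at log2 -2.54 ± 0.065 and -2.31 ± 0.059, while their relatives UGT2B11 and UGT2B28, on the same list, rose. Reads of these near-identical paralogs may be split between them, so the level of any one is uncertain.

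Receptor partners moved both ways. Of 30 genes for the receptor and its cofactors, 13 rose and 12 fell, where 31.2% of all genes were called higher and 31% lower. GRHL2, an epithelial factor that works with the receptor, rose (log2 1.18 ± 0.048), and the corepressor TLE3 (log2 -1.19 ± 0.058) and the pioneer factor GATA2 (log2 -0.95 ± 0.048) fell. With library totals, 7 of the 30 were called higher, against 13. Among the 20 luminal markers, 14 rose and 5 fell, OCLN, a tight junction protein, having 60.2 ± 1.33 CPM with R1881, against 152 ± 7.76 CPM with vehicle (SD, n = 3 each; log2 -1.33 ± 0.058). Of the markers of other cell types, few passed the filter on low counts (2 basal, 3 neuroendocrine, 7 stromal, 2 blood and endothelial). Of these, FN1, fibronectin, fell (log2 -1.52 ± 0.057), as did ENO2, neuronal enolase (log2 -1.53 ± 0.11). COL3A1, a fibrillar collagen, fell, having 0.192, 0.18 and 0 CPM with R1881, against 3.78, 1.55 and 1.07 CPM with vehicle (log2 -3.85 ± 0.81), and ACTA2, smooth muscle actin, rose, having 5.19, 7.4 and 5.16 CPM with R1881, against 2.34, 2.93 and 1.93 CPM with vehicle (log2 1.29 ± 0.27). ITGB4, a basal integrin, fell (log2 -1.64 ± 0.32), having 2.69, 1.26 and 1.07 CPM with R1881, against 5.39, 5.16 and 5.35 CPM with vehicle, and its partner ITGA6 had 48.1, 42.8 and 46.6 CPM with R1881, against 44.2, 46.1 and 50.3 CPM with vehicle, with overlapping libraries (log2 -0.03 ± 0.089, adjusted p = 0.785). CD68, a lysosomal protein abundant in macrophages, rose (log2 1.10 ± 0.21), and VWF, von Willebrand factor of endothelium, fell (log2 -0.94 ± 0.30). CD68 had 9.62, 8.85 and 12.5 CPM with R1881, against 4.14, 3.96 and 6.42 CPM with vehicle, and VWF 2.5, 1.8 and 3.65 CPM with R1881, against 5.39, 3.44 and 6.42 CPM with vehicle, with overlapping libraries; the VWF call was lost without siNFYA vehicle replicate 3 or siNFYA R1881 replicate 2. The neuropeptide NTS fell (log2 -2.37 ± 0.68), having 0.192, 0.18 and 0.43 CPM with R1881, against 1.8, 1.21 and 1.28 CPM with vehicle, and SYP, synaptophysin, had 2.12, 2.71 and 2.36 CPM with R1881, against 2.34, 1.72 and 0.857 CPM with vehicle (log2 0.51 ± 0.39, adjusted p = 0.262). COL3A1 and NTS rest on few reads, with 2 and 4 counts over the R1881 libraries. The 14 stromal markers summed to between 171 and 187 CPM in siNFYA R1881 libraries, against between 447 and 520 CPM in siNFYA vehicle libraries.

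Genes of sterol and fatty acid synthesis rose in larger part, where 31.2% of all genes were called higher and 31% lower. Of 26 cholesterol genes tested, 23 rose and 2 fell (median log2 0.73 under siNFYA, 0.64 under control siRNA). SCAP, the escort protein of the SREBP factors, had 370.2, 352 and 336 CPM with R1881, against 92.1, 100.2 and 95.9 CPM with vehicle (log2 1.88 ± 0.048), and each R1881 library exceeded each vehicle library. The members that fell were the sterol reductases TM7SF2 (log2 -0.55 ± 0.051) and LBR (log2 -0.64 ± 0.064). Of 25 fatty acid synthesis and desaturation genes, 16 rose and 6 fell (median 0.37). The elongases parted: ELOVL7 had 168 ± 4.26 CPM with R1881, against 10.8 ± 1.23 CPM with vehicle (log2 3.94 ± 0.079) and ELOVL5 1428 ± 47.6 CPM with R1881, against 284 ± 16.4 CPM with vehicle (log2 2.33 ± 0.041), whereas ELOVL6 had 40.7 ± 1.28 CPM with R1881, against 91.6 ± 3.78 CPM with vehicle (log2 -1.17 ± 0.066; SD, n = 3 each). ACACB, the mitochondrial acetyl-CoA carboxylase, also fell (log2 -1.61 ± 0.16).

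Secretory pathway genes rose in larger part, where 31.2% of all genes were called higher and 31% lower. Of 37 genes of folding in the endoplasmic reticulum and the unfolded protein response, 35 rose and none fell (median log2 1.25 under siNFYA, 1.21 under control siRNA; 1 of them was called lower with library totals). EDEM3, which marks misfolded glycoproteins for disposal, had 391 ± 9.78 CPM with R1881, against 76.4 ± 4.95 CPM with vehicle (log2 2.36 ± 0.049). HERPUD1, of the degradation complex in the membrane of that compartment, had 411 ± 19.6 CPM with R1881, against 92.7 ± 3.87 CPM with vehicle (log2 2.15 ± 0.047), and CREB3L4, a membrane-bound transcription factor of prostate cells, 398 ± 13.9 CPM with R1881, against 95.1 ± 3.01 CPM with vehicle (log2 2.06 ± 0.047). HSPA5, the chief chaperone of the compartment, rose as well (log2 1.40 ± 0.035). Of 32 glycosylation and hexosamine genes, 26 rose and 5 fell (median 0.81). UAP1, which makes UDP-N-acetylglucosamine, had 837 ± 37.5 CPM with R1881, against 113 ± 3.59 CPM with vehicle (log2 2.89 ± 0.043), and PGM3, the step before it, 275 ± 4.27 CPM with R1881, against 72.2 ± 2.63 CPM with vehicle (log2 1.93 ± 0.045). GALNT3, which starts O-linked glycans, fell (log2 -1.34 ± 0.057), as did the core fucosyltransferase FUT8 (log2 -1.16 ± 0.11).

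Polyamine genes rose in larger part, where 31.2% of all genes were called higher and 31% lower. Of 17 tested, 13 rose and 2 fell (4 fell with library totals). ODC1, the rate-limiting enzyme of polyamine synthesis, had 4769, 4955 and 4692 CPM with R1881, against 506, 504 and 483 CPM with vehicle (log2 3.27 ± 0.037). SMS, spermine synthase, had 992, 1112 and 1032 CPM with R1881, against 126, 126 and 129 CPM with vehicle (log2 3.04 ± 0.045), and SAT1, which starts polyamine breakdown, 700, 761 and 698 CPM with R1881, against 57, 55.6 and 51 CPM with vehicle (log2 3.72 ± 0.049). RNA of enzymes of synthesis and of breakdown thus rose side by side. AZIN1, which relieves ODC1 from its antizyme, fell (log2 -0.29 ± 0.043), as did the arginase ARG2 (log2 -0.17 ± 0.059). ARG2 had 130.2, 134 and 113 CPM with R1881, against 129.5, 149 and 148 CPM with vehicle, with overlapping libraries. The ARG2 call was lost without siNFYA vehicle replicate 2 or 3 or siNFYA R1881 replicate 3, and its log2 fold change ran from -0.233 to -0.102 over the leave-outs.

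Central carbon metabolism showed no common direction. Of 31 glycolysis and pyruvate genes, 8 rose and 15 fell (median -0.061). Their log2 fold changes ran from -1.53 to 5.41. MPC2, a subunit of the mitochondrial pyruvate carrier, rose (log2 2.41 ± 0.044), as did the hexokinase HK1 (log2 1.13 ± 0.041) and the sugar transporter SLC2A12 (log2 1.43 ± 0.065). The members named here all rose, though falls were more numerous. Of 27 genes of the tricarboxylic acid cycle, 12 rose and 9 fell with TMM, close to the shares of all genes (31.2% higher and 31% lower), and 16 fell with library totals and 5 in DESeq2's test. GLUD1, glutamate dehydrogenase, had 666 ± 7.66 CPM with R1881, against 179 ± 4.95 CPM with vehicle (log2 1.89 ± 0.035), IDH1, the cytosolic isocitrate dehydrogenase, rose (log2 1.35 ± 0.036), as did OGDH (log2 0.86 ± 0.038), and GLS2, a glutaminase, fell (log2 -2.09 ± 0.18). Of 27 fatty acid oxidation genes, 12 rose and 10 fell. ECI2 (log2 2.32 ± 0.046), ACAA1 (log2 1.10 ± 0.052) and the racemase AMACR (log2 1.86 ± 0.043), which serve peroxisomal oxidation, rose, and HADHB (log2 -0.35 ± 0.046) of the mitochondrial trifunctional protein and the peroxisomal EHHADH (log2 -0.78 ± 0.12) fell.

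Genes of DNA replication and cell division fell almost without exception, where 31% of all genes were called lower and 31.2% higher. Of 50 replication and S phase genes, 49 fell and none rose (median log2 -1.58 under siNFYA, -1.35 under control siRNA). MCM4, a subunit of the replicative helicase, had 36.9, 33.4 and 29.9 CPM with R1881, against 164, 169 and 182 CPM with vehicle (log2 -2.35 ± 0.071). PCNA, the sliding clamp, had 55.4, 52.9 and 54.2 CPM with R1881, against 193, 182 and 183 CPM with vehicle (log2 -1.78 ± 0.058), and MCM3 fell as well (log2 -2.19 ± 0.073). Of 42 mitosis and G2 genes, 41 fell and none rose (median -1.18 under siNFYA, -1.07 under control siRNA), among them CDK1, the kinase that drives entry into mitosis (log2 -1.57 ± 0.057), the topoisomerase TOP2A (log2 -1.69 ± 0.069) and the checkpoint kinase BUB1B (log2 -1.99 ± 0.089). In whole cultures, fewer cells in a phase of the cycle and less RNA per cell cannot be told apart. The factors E2F1 (log2 -2.15 ± 0.10), MYBL2 (log2 -1.69 ± 0.08) and FOXM1 (log2 -0.90 ± 0.064), which drive such genes, fell too.

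Of 29 p53 target genes, 20 fell and 4 rose, beside 31% of all genes called lower and 31.2% called higher: TP53INP1 (log2 -2.12 ± 0.062) and the sestrin SESN1 (log2 -1.25 ± 0.052) fell, and the death receptor TNFRSF10B (log2 1.76 ± 0.043), the phosphatase PPM1D (log2 1.03 ± 0.088) and the cell cycle inhibitor CDKN1A (log2 0.37 ± 0.057) rose. Of 39 interferon response genes, 20 fell and 6 rose, OAS3 (log2 -1.76 ± 0.12) and TRIM25 (log2 -0.73 ± 0.047) falling and B2M, the light chain of class I molecules (log2 1.69 ± 0.045), and ISG20 (log2 1.18 ± 0.15) rising. Of 16 immediate early genes, 7 rose and 6 fell: NR4A1, an orphan nuclear receptor, rose (log2 2.51 ± 0.10), and MYC (log2 -1.14 ± 0.055) and the antiproliferative gene BTG2 (log2 -2.22 ± 0.11) fell. The KLF family had 5 rises and 4 falls among 13 genes. KLF5, a factor of epithelial growth, had 22.3, 28 and 29.9 CPM with R1881, against 3.42, 5.33 and 3.64 CPM with vehicle (log2 2.67 ± 0.18), and KLF15 (log2 2.17 ± 0.14) and KLF6 (log2 1.81 ± 0.12) rose with it, whereas KLF10 (log2 -1.01 ± 0.11) and KLF11 (log2 -1.12 ± 0.13) fell. Of 74 cytosolic ribosomal protein genes, 31 fell and 6 rose, where 31.2% of all genes were called higher and 31% lower. The rises numbered 12 without siNFYA R1881 replicate 1 and 3 without siNFYA R1881 replicate 2, and the falls 21 to 41 over the leave-outs. Changes were small: RPS3 had a log2 fold change of -0.33, RPL5 -0.29, RPS12 -0.31 and, in the other direction, RPS10 0.20 and RPL24 0.14; with library totals 70 fell, none rose and RPS10 and RPL24 turned to -0.023 and -0.079.

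NF-Y's own subunits and target class held both rises and falls, beside 31.2% of all genes called higher and 31% lower. NFYA rose with R1881 under siNFYA, at log2 0.29 ± 0.069, adjusted p = 0.00083, and under control siRNA by a similar amount, 0.29 ± 0.056; with library totals it did not pass under siNFYA (log2 0.064). NFYB had 26.5, 30.3 and 29.7 CPM with R1881, against 37.6, 36.8 and 39.2 CPM with vehicle (log2 -0.39 ± 0.089), and NFYC had 54, 59.6 and 58.7 CPM with R1881, against 53.8, 54.2 and 47.8 CPM with vehicle, where the libraries overlapped (log2 0.14 ± 0.075, adjusted p = 0.111). Of 14 NF-Y subunits and partners, 5 rose and 5 fell with TMM, close to those shares of all genes. With library totals 1 rose and 8 fell. Of 41 genes known in textbooks for a CCAAT box, 20 rose and 17 fell, the risers including HERPUD1 and HSPA5 and the fallers PCNA and TYMS, thymidylate synthase (log2 -2.15 ± 0.073). The median of the 41 was 0.078 under siNFYA and 0.12 under control siRNA.

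**Figure D3:**
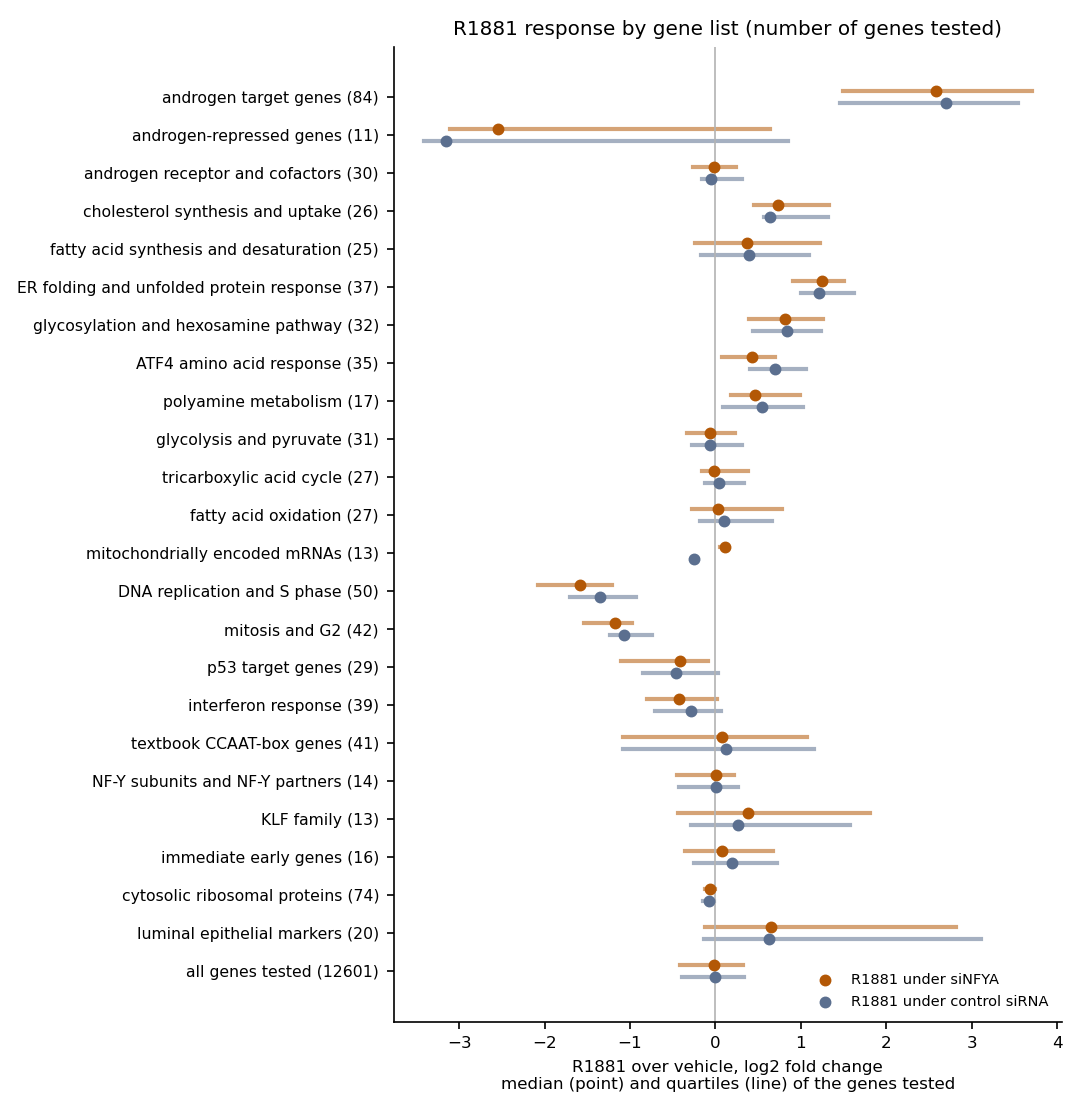
Median (points) and quartiles (lines) of the log2 fold change of R1881 over vehicle for the tested genes of each list shown, under siNFYA (orange, upper of each pair) and under control siRNA (blue, lower). The basal, neuroendocrine, stromal and mesenchymal, and blood and endothelial marker lists are left out. Androgen targets lie far to the right and replication genes far to the left in both; the ATF4 list has its siNFYA median at 0.43 and its control median at 0.70, and the mitochondrially encoded mRNAs at 0.11 and -0.25.

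Whether the knockdown changed the androgen response was tested as the difference between the log2 fold changes, siNFYA minus control siRNA, in the same edgeR fit. The difference passed in 91 of 12601 genes (0.722%), 42 above 0 (0.333%) and 49 below 0 (0.389%), and 1508 genes had an unadjusted p under 0.05. Most of them changed in the same direction under both siRNAs, 26 with a larger change under siNFYA and 36 with a smaller one. A further 13 were called under control siRNA alone, 6 under siNFYA alone and 10 in opposite directions. The median absolute difference of the 91 was 0.37 on the log2 scale. Of the 49 genes below 0, 38 were higher in siNFYA than in control cells in vehicle (6.67% of all genes were called so), and of the 42 above 0, 27 were lower in siNFYA than in control cells in vehicle (6.79% of all genes); the same vehicle libraries enter both tests. Without siNFYA vehicle replicate 3 the difference passed in 74 genes above 0 and 32 below 0. In a joint fit of all 17 libraries, siKLF5 included, the difference passed in 59 genes, and in a fit of log2(TPM + 1) in 1. Of 35 named genes with a called difference, 34 lost it in the fit of log2(TPM + 1), all but UGT2B11. Over all leave-outs of 1 library, the number of differences ran from 43 without control R1881 replicate 2 to 264 without siNFYA R1881 replicate 1. FKBP5 and TMPRSS2 did not pass, with differences of 0.01 ± 0.068 and 0.06 ± 0.066.

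KLK2 and KLK3 were higher under siNFYA in both treatments and had the smaller fold. KLK3 had 4193, 4271 and 4140 CPM in the siNFYA R1881 libraries, against 83.5, 89.8 and 106 CPM in the siNFYA vehicle libraries. It had 3677, 3804 and 3707 CPM in the control R1881 libraries, against 65.6, 54.6 and 58.6 CPM in the control vehicle libraries. Each siNFYA library exceeded each control library of the same treatment, by a log2 of 0.64 ± 0.068 in vehicle and 0.17 ± 0.048 in R1881, and the log2 fold changes of R1881 were 5.50 under siNFYA and 5.97 under control siRNA, a difference of -0.46 ± 0.083, adjusted p = 0.00541. KLK2 had 1080, 1028 and 1059 CPM in the siNFYA R1881 libraries, against 11.5, 10.2 and 12.2 CPM in the siNFYA vehicle libraries. It had 830.4, 874 and 843 CPM in the control R1881 libraries, against 7.17, 4.89 and 5.2 CPM in the control vehicle libraries, and the difference was -0.65 ± 0.15, adjusted p = 0.0416. The KLK3 difference kept its call with any 1 of the 12 libraries left out, the KLK2 difference in 2 of the 12. Of the other prostate kallikreins, looked up after the values of KLK2 and KLK3 were seen, neither KLK4 (difference -0.23 ± 0.094, adjusted p = 0.313) nor KLK15 (difference -1.26 ± 1.03, adjusted p = 0.694) passed.

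The glucuronosyltransferases UGT2B11, UGT2B15 and UGT2B17 had differences above 0. UGT2B11, at chr4:69199951-69214731, had 196, 209 and 199.9 CPM in the siNFYA R1881 libraries, against 18.5, 13.8 and 15.6 CPM in the siNFYA vehicle libraries. It had 104, 114 and 117 CPM in the control R1881 libraries, against 17.3, 16.1 and 18.9 CPM in the control vehicle libraries. Vehicle levels overlapped and R1881 levels did not, and the difference was 0.98 ± 0.13, adjusted p = 0.000476. UGT2B15 had 23.6, 26.9 and 29.4 CPM in the siNFYA R1881 libraries, against 154, 158 and 152 CPM in the siNFYA vehicle libraries. It had 18.7, 19.3 and 19.1 CPM in the control R1881 libraries, against 185, 186 and 191 CPM in the control vehicle libraries, so that it fell less under siNFYA (difference 0.75 ± 0.11, adjusted p = 0.000655), as did UGT2B17 (difference 0.55 ± 0.09, adjusted p = 0.00201). These differences kept their call with any 1 of the 12 libraries left out, within the limit on paralogous reads given above. UGT2B28 did not pass (difference 0.18 ± 0.42, adjusted p = 0.93).

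**Figure D4:**
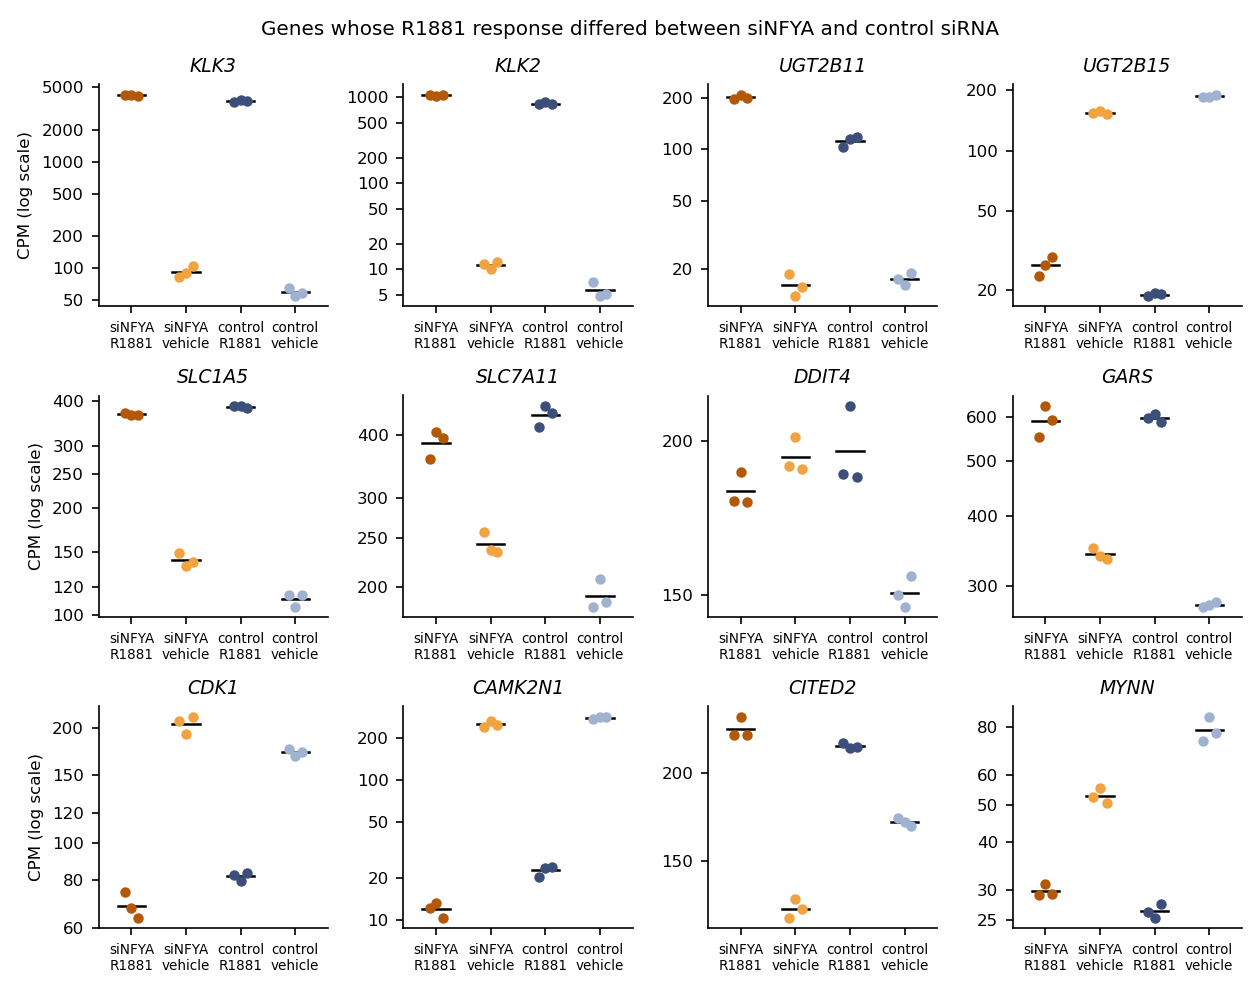
Level in CPM (logarithmic axis) of 12 genes whose R1881 response differed, in siNFYA R1881, siNFYA vehicle, control R1881 and control vehicle libraries, from left to right; points are libraries and bars their means. For SLC1A5, SLC7A11, DDIT4 and GARS the siNFYA vehicle libraries lie above the control vehicle libraries, while the R1881 libraries of both siRNAs lie closer together.

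Of the amino acid response genes, 14 of 35 had a called difference below 0 between siNFYA and control siRNA. ATF4 is the transcription factor that cells make when amino acids run short, and its targets serve amino acid uptake and synthesis and the loading of tRNAs. Of 35 such genes tested, 25 rose and 4 fell with R1881 under siNFYA (8 fell with library totals). Their median log2 fold change was 0.43. Under control siRNA 29 rose and 2 fell, with a median of 0.70. Of all genes, 31.2% were called higher and 31% lower under siNFYA, and 32.1% and 30.8% under control siRNA. The difference passed above 0 in 1, SLC38A2 (0.29 ± 0.053, adjusted p = 0.00628), and below 0 in those 14, beside 0.333% and 0.389% of all genes. Against siKLF5 the difference passed below 0 in 3 of the 35 and above 0 in none, beside 0.31% and 0.356% of all genes; the 3, named after their values were seen, were MTHFD2, SESN2 and DDIT4. The median log2 fold change of the 35 under siKLF5 was 0.63. SLC1A5, a glutamine carrier, had 371, 366 and 365 CPM in the siNFYA R1881 libraries, against 149.8, 138 and 141 CPM in the siNFYA vehicle libraries. It had 387, 389 and 384 CPM in the control R1881 libraries, against 114, 105 and 114 CPM in the control vehicle libraries (difference -0.44 ± 0.058, adjusted p = 0.000386). SLC7A11, the cystine transporter, had 358, 406 and 394 CPM in the siNFYA R1881 libraries, against 257, 236 and 234 CPM in the siNFYA vehicle libraries. It had 414, 457 and 441 CPM in the control R1881 libraries, against 182, 207 and 186 CPM in the control vehicle libraries (difference -0.52 ± 0.073, adjusted p = 0.000648). In both genes the siNFYA vehicle libraries lay above all control vehicle libraries. Under siKLF5 SLC1A5 had a log2 fold change of 1.58, and the difference of siNFYA from it did not pass (-0.21 ± 0.062, adjusted p = 0.134). SLC7A11 had 0.89 (difference -0.22 ± 0.082, adjusted p = 0.3) and GARS, described next, 0.94 (difference -0.14 ± 0.061, adjusted p = 0.396) under siKLF5.

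GARS, glycyl-tRNA synthetase, had 553, 628 and 592 CPM in the siNFYA R1881 libraries, against 349.8, 339.5 and 335 CPM in the siNFYA vehicle libraries. It had 597, 608 and 587 CPM in the control R1881 libraries, against 275, 277 and 281 CPM in the control vehicle libraries (difference -0.31 ± 0.056, adjusted p = 0.00541). DDIT4, an inhibitor of mTORC1, had 179, 189 and 179 CPM in the siNFYA R1881 libraries, against 191, 202 and 189.9 CPM in the siNFYA vehicle libraries. It had 188, 214 and 187 CPM in the control R1881 libraries, against 149.8, 146 and 155 CPM in the control vehicle libraries; the change did not pass under siNFYA (log2 -0.093 ± 0.05) and was a rise under control siRNA (log2 0.38 ± 0.049; difference -0.48 ± 0.07, adjusted p = 0.000731). PHGDH, which opens serine synthesis, fell slightly under siNFYA (log2 -0.18 ± 0.034; difference -0.23 ± 0.047, adjusted p = 0.0195), and CBS, of the route from homocysteine to cysteine, rose less (difference -0.24 ± 0.053, adjusted p = 0.0248); its reads may be shared with a near-identical copy. The PHGDH call held in 6 of the 12 leave-outs and was lost in the joint fit of 17 libraries, and the CBS call held in 5 of the 12. SLC7A5, a large neutral amino acid carrier, fell under siNFYA (log2 -1.28 ± 0.20). In vehicle, 23 of the 35 genes were higher in siNFYA than in control cells and none lower. Of all genes, 6.67% were called higher in vehicle and 6.79% lower. In R1881, 2 of the 35 were higher and 2 lower. There 751 of all genes (5.96%) were called, 332 higher (2.63%) and 419 lower (3.33%). The count of 14 fell to 9 without siNFYA vehicle replicate 3, siNFYA R1881 replicate 3 or control R1881 replicate 2, to 10 in a joint fit of 17 libraries, and to 0 in a fit of log2(TPM + 1).

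Some falls were deeper under siNFYA. CAMK2N1 had 12.3, 13.4 and 10.3 CPM in siNFYA R1881 libraries, against 238, 264 and 245 CPM in siNFYA vehicle libraries. It had 20.4, 23.6 and 24 CPM in the control R1881 libraries, against 271, 280.1 and 283 CPM in the control vehicle libraries (difference -0.75 ± 0.13, adjusted p = 0.00541). CDK1 had 74.6, 67.7 and 63.6 CPM in the siNFYA R1881 libraries, against 208, 192 and 214 CPM in the siNFYA vehicle libraries. It had 82.4, 79.5 and 83.7 CPM in the control R1881 libraries, against 176, 169 and 173 CPM in the control vehicle libraries, higher than siNFYA with R1881 and lower than siNFYA with vehicle (difference -0.49 ± 0.081, adjusted p = 0.00201). Both calls held with any 1 of the 12 libraries left out. Of the 50 replication genes, MCM5 alone passed (difference -0.49 ± 0.11, adjusted p = 0.0301; 0 to 3 genes over the leave-outs), and of the 42 mitosis genes CDK1 and KIF2C, a microtubule depolymerase (difference -0.68 ± 0.15, adjusted p = 0.0248), although the median difference was below 0 in both lists, at -0.21 and -0.19, against -0.015 for all genes tested. The MCM5 call held in 4 and the KIF2C call in 9 of the 12 leave-outs, and DESeq2 gave neither an adjusted p. IQGAP3, a scaffold of dividing cells (difference -0.67 ± 0.16, adjusted p = 0.0416), TCF19, a chromatin reader (difference -0.55 ± 0.13, adjusted p = 0.0416), and ADRA2A, the alpha-2A adrenergic receptor (difference -0.80 ± 0.19, adjusted p = 0.0451), were called as well, but each lost its call when any of at least 9 of the 12 libraries was left out. CDKN1A rose less under siNFYA (difference -0.35 ± 0.081, adjusted p = 0.0352), a call that held in 4 of the 12.

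Other genes changed more, or fell less, under siNFYA. CITED2, which competes for the coactivators CBP and p300, had 227, 241 and 226 CPM in the siNFYA R1881 libraries, against 124, 132 and 128 CPM in the siNFYA vehicle libraries. It had 221, 217 and 218 CPM in the control R1881 libraries, against 173, 170.3 and 168 CPM in the control vehicle libraries (difference 0.49 ± 0.058, adjusted p = 0.000163). In vehicle every siNFYA library lay below every control library (siNFYA over control, log2 -0.41 ± 0.043), and in R1881 the siNFYA libraries lay slightly above (log2 0.082 ± 0.04, adjusted p = 0.262). ACSL3 rose further under siNFYA (log2 3.81) than under control siRNA (log2 3.44; difference 0.38 ± 0.055, adjusted p = 0.000693). MYNN, a zinc finger protein, had 29, 31.1 and 29.2 CPM in the siNFYA R1881 libraries, against 52.5, 55.6 and 50.8 CPM in the siNFYA vehicle libraries. It had 26.3, 25.3 and 27.5 CPM in the control R1881 libraries, against 73.7, 85.2 and 77.4 CPM in the control vehicle libraries (difference 0.75 ± 0.12, adjusted p = 0.00125). LTN1, the ubiquitin ligase of stalled ribosomes, had 24.2, 22.6 and 25.1 CPM in the siNFYA R1881 libraries, against 70.9, 76.4 and 65.7 CPM in the siNFYA vehicle libraries. It had 15.1, 17.6 and 16 CPM in the control R1881 libraries, against 76.5, 82.8 and 81.6 CPM in the control vehicle libraries (difference 0.73 ± 0.13, adjusted p = 0.00502). Under siKLF5 LTN1 had a log2 fold change of -1.72, from which siNFYA did not differ at this threshold (difference 0.14 ± 0.12, adjusted p = 0.741). DESeq2 gave no adjusted p for the MYNN and LTN1 differences. SOX9, a factor of prostate development (difference 0.76 ± 0.18, adjusted p = 0.0416), GALNT18, of O-glycan synthesis (difference 0.70 ± 0.16, adjusted p = 0.0341), and NCOA1, a coactivator of the receptor (difference 0.29 ± 0.064, adjusted p = 0.03), lost their calls in 9, 8 and 6 of the 12 leave-outs. SLX1A, a structure-specific nuclease subunit, had 17.1, 3.97 and 7.52 CPM in the siNFYA R1881 libraries, against 12.8, 20.6 and 7.92 CPM in the siNFYA vehicle libraries. It had 21.9, 15.2 and 20.1 CPM in the control R1881 libraries, against 10.9, 4.31 and 4.01 CPM in the control vehicle libraries (difference -2.15 ± 0.50, adjusted p = 0.0416). SLX1A shares near-identical sequence with SLX1B, and its replicates spread widely. Its call held in 3 of the 12 leave-outs and was lost in the joint fit of 17 libraries and with library totals.

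Mitochondrially encoded mRNAs, which encode respiratory chain subunits, had called differences between the responses. The direction of their response under siNFYA rested on the scaling. The differences of MT-ND4L, MT-CO3 and MT-CYB kept their call with library totals. Under siNFYA 5 of the 13 rose and none fell (median log2 0.11), beside 31.2% of all genes called higher and 31% lower. Under control siRNA all 13 fell (median -0.25), beside 30.8% of all genes. With library totals none rose and 5 fell under siNFYA. The 5 rises under siNFYA became 9 without siNFYA vehicle replicate 1, 2 without siNFYA vehicle replicate 3 and 0 without siNFYA R1881 replicate 3 or in the joint fit of 17 libraries, and DESeq2's test called 1. MT-CYB had 2436, 2572 and 2622 CPM in the siNFYA R1881 libraries, against 2395, 2343 and 2177 CPM in the siNFYA vehicle libraries. It had 1434, 1323 and 1323 CPM in the control R1881 libraries, against 1728, 1453 and 1538 CPM in the control vehicle libraries (difference 0.35 ± 0.071, adjusted p = 0.0162). MT-ND4L (difference 0.43 ± 0.077, adjusted p = 0.00541) and MT-CO3 (difference 0.35 ± 0.069, adjusted p = 0.0123) were alike, and MT-ND6 did not pass (difference 0.37 ± 0.10, adjusted p = 0.0657). The difference was called in 8 of the 13, but in 1 without control R1881 replicate 2, in 2 without siNFYA R1881 replicate 3, in 3 without siNFYA vehicle replicate 2 or control R1881 replicate 3, in 4 without control vehicle replicate 1 and in none in the joint fit. All 13 were higher in siNFYA than in control cells in both treatments. Of all genes, 6.67% were called higher in vehicle and 2.63% in R1881. The mitochondrial share of counts was 2.54% to 3.00% in siNFYA libraries, against 1.33% to 2.07% in control libraries. In siKLF5 libraries it was 2.20% to 2.96%, so the higher share was not particular to NFYA knockdown; the part of this share in the result was not tested.

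The 10 genes called in opposite directions under both siRNAs were of unlike abundance. Besides MT-CYB and MT-ND4L, described above, TTC3, a ubiquitin ligase, was well expressed, with 474, 477 and 478 CPM in the siNFYA R1881 libraries, against 437, 427 and 443 CPM in the siNFYA vehicle libraries. It had 505, 486 and 519.5 CPM in the control R1881 libraries, against 547, 545 and 536 CPM in the control vehicle libraries (difference 0.24 ± 0.048, adjusted p = 0.0152), a call that held in 9 of the 12 leave-outs. AMIGO3, SRP9P1 and H3F3AP4 were of low count. AMIGO3 had 3.85, 0 and 0 CPM in the siNFYA R1881 libraries, against 0, 0.344 and 0 CPM in the siNFYA vehicle libraries. It had 0, 0 and 0 CPM in the control R1881 libraries, against 5.08, 3.88 and 3.57 CPM in the control vehicle libraries. The pseudogene SRP9P1 had counts in 1 siNFYA R1881 library, at 0, 3.61 and 0 CPM, none in the siNFYA vehicle and control R1881 libraries, and 3.44, 6.61 and 1.64 CPM in control vehicle libraries. The histone pseudogene H3F3AP4 had 4.04, 3.79 and 0 CPM in the siNFYA R1881 libraries, against 7.73, 4.65 and 24.2 CPM in the siNFYA vehicle libraries. Reads of such copies can pass between them and their parent genes, and a library at 0 beside others with several CPM makes these calls uncertain.

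The promoters of the genes with the largest differences in either direction that held the core of the NF-Y motif are shown next, since NFYA recognizes this element. They are the 250 bases before the RefSeq start site on the gene's strand, 5′ to 3′, from GRCh38.p14, with CCAAT or its reverse complement ATTGG in capitals. UGT2B11 (chr4:69214749-69214998, minus strand) and LTN1 (chr21:28992878-28993127, minus strand) had differences above 0, and SLX1A (chr16:30193593-30193842, plus strand) and KLK2 (chr19:50873189-50873438, plus strand) below 0. The calls of UGT2B11 and LTN1 held in all 12 leave-outs, those of SLX1A and KLK2 in only 3 and 2 of the 12.
UGT2B11: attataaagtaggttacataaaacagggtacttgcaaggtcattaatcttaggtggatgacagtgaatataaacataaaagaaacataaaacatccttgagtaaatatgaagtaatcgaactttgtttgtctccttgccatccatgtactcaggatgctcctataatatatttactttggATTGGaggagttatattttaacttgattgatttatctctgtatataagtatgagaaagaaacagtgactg
LTN1: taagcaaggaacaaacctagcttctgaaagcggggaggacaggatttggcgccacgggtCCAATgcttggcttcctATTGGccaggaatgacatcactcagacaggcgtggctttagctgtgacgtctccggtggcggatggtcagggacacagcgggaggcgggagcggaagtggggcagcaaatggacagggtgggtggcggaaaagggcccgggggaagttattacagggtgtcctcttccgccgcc
SLX1A: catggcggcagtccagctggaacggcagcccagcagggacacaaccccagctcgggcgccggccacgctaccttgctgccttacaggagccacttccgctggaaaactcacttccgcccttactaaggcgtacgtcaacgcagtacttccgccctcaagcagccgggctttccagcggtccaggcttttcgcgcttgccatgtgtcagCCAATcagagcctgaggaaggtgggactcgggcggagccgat
KLK2: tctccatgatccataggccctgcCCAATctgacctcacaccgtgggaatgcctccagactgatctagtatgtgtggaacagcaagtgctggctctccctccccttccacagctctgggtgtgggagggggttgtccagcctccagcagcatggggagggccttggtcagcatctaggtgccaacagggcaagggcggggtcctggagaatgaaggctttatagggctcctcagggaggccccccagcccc

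The match began 70 bases before the start site in UGT2B11, 42 before it in SLX1A, 227 before it in KLK2, and 191 and 174 before it in LTN1. These start sites are those of RefSeq. The KLK2 window lies inside the GENCODE interval given above for KLK2, so the RefSeq start used here differs from the start of that interval. CCAAT or ATTGG, searched on the 300 bases from 250 before to 50 after the start, was present in 35.7% of all 27305 RefSeq promoters and in 37.3% of the 9863 promoters found for the tested genes. Genes higher with R1881 under siNFYA held it in 38.4% and genes lower in 36.8% of promoters. Among genes with a called difference, it was present in 10 of 24 promoters (41.7%) above 0 and in 20 of 41 (48.8%) below 0. By list, it was present in 28 of 34 promoters (82.4%) for folding in the endoplasmic reticulum, 27 of 35 (77.1%) for mitosis, 15 of 20 (75%) for cholesterol, 23 of 42 (54.8%) for replication, 16 of 31 (51.6%) for the ATF4 list, 28 of 67 (41.8%) for androgen targets and 20 of 60 (33.3%) for cytosolic ribosomal proteins. A pentamer is short and matches by chance in many windows, so these shares describe sequence and not binding.

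Set against siKLF5, another knockdown in the same design, the androgen response under siNFYA differed in 86 of 12922 genes (0.666%), 46 above 0 (0.356%) and 40 below 0 (0.31%), with 1352 at an unadjusted p under 0.05. This fit took all 17 libraries, and the siNFYA libraries are those of the comparison with control siRNA, so both sets of differences share them. KLK3 had 4181, 4262 and 4130 CPM in siNFYA R1881 libraries, against 83.1, 89.4 and 105 CPM in siNFYA vehicle libraries. Under siKLF5 it had 3315, 3364 and 3261 CPM with R1881, against 33.3 and 35.8 CPM with vehicle (difference -1.08 ± 0.093, adjusted p = 1.7e-07). KLK2 had 1077, 1026 and 1056 CPM in siNFYA R1881 libraries, against 11.5, 10.1 and 12.2 CPM in siNFYA vehicle libraries. Under siKLF5 it had 767, 802 and 788 CPM with R1881, against 3.19 and 3.99 CPM with vehicle (difference -1.21 ± 0.18, adjusted p = 0.00111). Both kallikreins were higher in siNFYA than in siKLF5 libraries in each treatment, and their fold was smaller.

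MYNN had 29, 31 and 29.2 CPM in siNFYA R1881 libraries, against 52.3, 55.3 and 50.5 CPM in siNFYA vehicle libraries. Under siKLF5 it had 26.9, 27.6 and 26 CPM with R1881, against 98 and 96.5 CPM with vehicle (difference 1.03 ± 0.11, adjusted p = 1.01e-05). UGT2B11 had 129, 128 and 127 CPM with R1881 under siKLF5, against 19.3 and 15 CPM with vehicle (difference from siNFYA 0.76 ± 0.15, adjusted p = 0.00959). For MYNN the vehicle libraries of the knockdowns lay furthest apart, and for UGT2B11 the R1881 libraries. ST6GAL1, a sialyltransferase of N-linked glycans, rose more under siNFYA (log2 2.15) than under siKLF5 (log2 1.21; difference 0.95 ± 0.22, adjusted p = 0.0328), and GALNT18, which did not change under siNFYA at this threshold (log2 0.073 ± 0.11), fell under siKLF5 (log2 -0.75; difference 0.82 ± 0.17, adjusted p = 0.0146). ADRA2A had 9.78, 7.57 and 10.1 CPM in siNFYA R1881 libraries, against 13.6, 16.8 and 14.1 CPM in siNFYA vehicle libraries, a log2 fold change of -0.71 under siNFYA and 0.32 under siKLF5 (difference -1.03 ± 0.20, adjusted p = 0.0115). KCNS3, a modifier subunit of potassium channels, fell further under siNFYA (log2 -3.02) than under siKLF5 (log2 -1.50; difference -1.52 ± 0.36, adjusted p = 0.042), a call that held in 3 of 11 leave-outs. The ST6GAL1 call held in 4 and the GALNT18 call in 9 of the 11, and DESeq2 gave no adjusted p for ST6GAL1, GALNT18, ADRA2A, KCNS3 and MYNN.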

How the data were processed

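The submitters' processing notes list FastQC, Trimmomatic, kallisto and DESeq2, and GRCh38 as genome, with no versions. Values in the deposited count tables are each gene's estimated counts. Further deposited tables join, per gene, an estimated count, a TPM value and another, unnamed number, which was not used. Identifiers were looked up in GENCODE v29 (34846 of 34912 found).

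Samples were grouped by siRNA and treatment from their labels. 1 of 18 samples, a siKLF5 vehicle library, was not analysed here. Rounded counts were filtered (filterByExpr), scaled (TMM) and tested in edgeR 4.0.16 (quasi-likelihood F test, R 4.3.3, Benjamini-Hochberg over all genes tested, threshold 0.05), with a coefficient for each group: 12 libraries for the response under siNFYA and its difference from control siRNA, 17 for the difference from siKLF5. The standard error (±, on log2 values) is the log2 fold change over the square root of F. CPM were computed from the deposited estimated counts with TMM scaling, over 12 libraries except where siKLF5 is given. The ratios near silence and the CPM given for 3 counts use library totals without TMM scaling. Alternatives used DESeq2 1.42.0 and limma 3.58.1 (on log2(TPM + 1)), and Python 3.11.15, pandas 2.3.3, SciPy 1.17.1 and matplotlib 3.10.9 served for tables, exact tests and figures. The fits were tested on simulated data.

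The members and the 27 gene lists (740 genes, 72 of them in more than 1 list) were chosen with earlier results of these data known; 2 list genes found no symbol. Genes were named by rule: 10 fixed genes; the 10 largest rises and falls among called protein-coding genes with at least 1 CPM in both groups, 5 in the higher and no overlap (1 fall, whose reads cannot be told from those of a near-identical copy, is not reported); the 4 near silence per direction with the highest level; the 8 largest differences per direction from control siRNA and 4 from siKLF5; in each list the 3 with the smallest p, 2 against the majority and 3 with a called difference; and genes called in opposite directions. Some of the genes so named are not reported here. Promoters came from RefSeq (GRCh38.p14), and 9863 of 12601 tested genes had one.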

Additional observations from a re-analysis of the deposited data

Results flagged for a closer look

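The androgen response differed between siNFYA and another siRNA, by a test of the difference itself, in 91 genes against control siRNA and 86 genes against siKLF5. Against control siRNA, differences (log2, siNFYA minus control) above 0 were 0.981 for UGT2B11, 0.76 for SOX9, 0.753 for UGT2B15, 0.749 for MYNN, 0.73 for LTN1, 0.699 for GALNT18, 0.554 for UGT2B17, 0.493 for CITED2, 0.379 for ACSL3, 0.29 for SLC38A2, 0.289 for NCOA1 and 0.238 for TTC3. The mitochondrially encoded MT-ND4L, MT-CO3 and MT-CYB had 0.428, 0.354 and 0.352. Differences below 0 were -2.14 for SLX1A, -0.796 for ADRA2A, -0.747 for CAMK2N1, -0.682 for KIF2C, -0.672 for IQGAP3, -0.651 for KLK2, -0.547 for TCF19, -0.494 for CDK1, -0.491 for MCM5, -0.464 for KLK3 and -0.354 for CDKN1A. Those of the amino acid genes were -0.52 for SLC7A11, -0.477 for DDIT4, -0.44 for SLC1A5, -0.314 for GARS, -0.244 for CBS and -0.228 for PHGDH. Fitted differences of -4.72 for H3F3AP4, 10.7 for AMIGO3 and 13.3 for SRP9P1 rest on groups at or near 0 counts and are no bounds on a fold.

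Against siKLF5, differences (log2, siNFYA minus siKLF5) were 1.03 for MYNN, 0.953 for ST6GAL1, 0.824 for GALNT18 and 0.764 for UGT2B11, and -1.52 for KCNS3, -1.21 for KLK2, -1.08 for KLK3 and -1.03 for ADRA2A.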

How the results depend on the processing

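The count of the R1881 response under siNFYA, 7828 genes, stayed within 1.5 times of itself under every alternative tried, and ran from 7311 to 7579 with 1 siNFYA library left out (3677 to 3947 higher, 3584 to 3733 lower); with library totals 2431 genes were called higher and 6205 lower, and with log2(TPM + 1) 2304 were called higher. The 91 differences from control siRNA became 59 in the joint fit of 17 libraries (30 below 0), 326 with no filter (147 above 0, 179 below 0) and 1 with log2(TPM + 1) (1 above 0, 0 below 0); DESeq2's test called 73 above 0 and library totals 32 below 0. Leaving out 1 library gave 43 to 264 (21 to 121 above 0, 20 to 143 below 0): 264 without siNFYA R1881 replicate 1, 47 without siNFYA R1881 replicate 3, 49 without siNFYA vehicle replicate 2, 43 without control R1881 replicate 2, and 57 without control R1881 replicate 3 or control vehicle replicate 2. The share above 0, 46.15%, was 69.8% without siNFYA vehicle replicate 3, 57.61% with DESeq2's size factors and 61.9% with library totals. Of 35 named genes with a called difference from control siRNA, none changed sign under the alternatives run, 17 kept the call with any 1 library left out, 12 kept it in at most 6 of 12 leave-outs, 22 kept it with DESeq2, which gave the other 13 no adjusted p (nor 17175 of its 21607 genes), 10 lost it in the joint fit and 34 lost it with log2(TPM + 1). The 86 differences from siKLF5 became 224 with no filter (110 above 0, 114 below 0) and 12 with log2(TPM + 1) (9 above 0, 3 below 0), DESeq2's test called 73 above 0, and leaving out 1 library gave 39 to 129 (19 to 64 above 0, 17 to 69 below 0), with 47 without siNFYA R1881 replicate 3, 39 without siKLF5 vehicle replicate 3, and 54 and 49 without siKLF5 R1881 replicates 2 and 3. Directions that turned were small: with library totals, NFYC -0.0841, MT-ND4L -0.0648, MT-CYB -0.0817, MT-ND6 -0.0464, RPS10 -0.0231 and RPL24 -0.079; with log2(TPM + 1), MT-CYB -0.0328 and RPL24 -0.0195, and for differences from control siRNA FKBP5 -0.0141 and TMPRSS2 -0.178. The response of ITGA6 under siNFYA, which did not pass, ran from -0.0688 to 0.0375 over the leave-outs. The FKBP5 difference was -0.000125 without mitochondrial genes and from -0.0571 to 0.0501 over the leave-outs. The cause of these changes was not tested. The joint fit was added for the response under siNFYA after seeing the data. No paired analysis was possible because the numbers in the labels run on from group to group without repeats. Depth limits the genes of a few CPM: 3 counts in 1 siNFYA library are 0.496 to 0.679 CPM before scaling, so folds of genes near silence rest on single reads.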
